A study of Homo sapiens with 8 samples.

Results

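Solute carriers are membrane proteins that move sugars, amino acids, ions, metals, vitamins and other small molecules across the cell surface or into organelles. Their genes are named by family number, a letter and a member number, so that SLC2A6 is the sixth member of the SLC2 family of sugar carriers. Growing lymphocytes and lymphoma cells draw on glucose, amino acid, iron and folate carriers to feed cell growth, and carriers of the SLC25 family supply the mitochondria. Every gene with such a symbol was taken if at least 1 of its probes was detected, at a detection p under 0.01, on at least 2 of the 8 arrays, and the brightest such probe stood for the gene. This gave 154 genes, of 358 solute carrier genes with a named probe and of 10183 features tested. They were sorted into 14 classes by transported substrate, among them 29 mitochondrial carriers, 17 amino acid carriers, 14 zinc carriers, 12 sugar carriers and 22 genes with no substrate assigned here.

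RNA was measured on Illumina HumanHT-12 v3 arrays in Karpas299, a human cell line derived from an anaplastic large cell lymphoma, a T cell tumour, which bears the receptor CD30 and expresses the NPM1-ALK fusion kinase. After 16 h of culture, cells were kept for a further 8 h in the used medium with 10 µg/ml of the agonistic anti-CD30 antibody T104, with 10 µg/ml of CD153-Fc, with 10 µg/ml of each, or untreated. CD153 is the natural ligand of CD30, and CD153-Fc is its fusion to an antibody Fc part. Each of the 4 groups had 2 biological duplicates of this single line. There was no group with Fc only or with another antibody, so effects of added protein cannot be told apart from effects of binding CD30. RNA came from whole cultures, in which a lower level per cell and fewer cells expressing a gene cannot be told apart. The study set the natural ligand against the antibody, and here the carriers are described in each comparison its design allows.

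Between 10713 and 12967 of 48797 probes were detected per array, and between 135 and 152 of the 154 carriers. The number of arrays limits the precision. Over the carriers, duplicates differed with an SD of 0.25 log2 with T104, 0.22 with CD153-Fc, 0.28 with both and 0.47 in untreated cells. The untreated duplicates thus disagreed most, and every comparison with untreated cells rests on them. Of the line's markers, ALK, the cytotoxic granule genes GZMB and PRF1, the T cell genes CD3D and CD4, IL2RA and MUC1 were detected on all 8 arrays, and the CD30 gene TNFRSF8 on 2. The probes of CD3E, CD3G, CD2, CD7 and NPM1 were detected on 0 arrays, as were those of the B cell genes MS4A1 and CD79A, the monocyte gene CD14, the epithelial genes EPCAM and KRT8 and the fibroblast gene COL1A1, whereas that of CSF1R, a monocyte gene, was detected on all 8. Of the 10 markers tested, 3 (IL2RA, MUC1 and CD5) were called higher and 1 (CD4) lower both with T104 and with both agents. With CD153-Fc, 2 were called higher and 0 lower. Over all features 10.5% were called with T104, 6.67% with both and 1.37% with CD153-Fc. CD5 passed the filter through 2 detected arrays only, so its calls are not taken as support.

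All 8 arrays of 128 carriers were above the detection limit. Another 204 genes fell short of the rule, 191 of them with 0 detected arrays and 13 with 1. The members nearest to the limit, detected on 2 arrays, were SLC26A2, SLC35D1 and SLC9A5, with mean log2 intensities of 6.72, 6.82 and 6.61 over the 8 arrays. Those just outside, with 1 detected array, included the lysosomal amino acid carrier SLC36A1, the nucleoside carrier SLC29A3 and the zinc carrier SLC39A7. Carriers of organic ions were the class least often measured, with 6 of 43 genes tested, and nucleotide sugar carriers the most often, with 12 of 14. All levels below are log2 intensities after background correction and quantile normalization, changes are differences of group means on that scale with the standard error (SE) of the limma model, and genes are called at an adjusted p under 0.05 by limma with Benjamini-Hochberg adjustment over all 10183 features (n = 2 arrays per group).

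T104 against untreated cells called 17 of the 154 carriers, 7 higher and 10 lower. That is 11.0% of the carriers, and over all features 10.5% were called, 5.11% higher and 5.41% lower. The share of carriers called was thus near the share over all features. Their median change of -0.03 log2 lay beside -0.02 over all features, and their median absolute change of 0.25 beside 0.24. The T104 arrays did not overlap with the untreated arrays for 54.5% of the carriers and 51.4% of all features. For CD153-Fc these shares were 38.3% and 41.0%, and for both agents 42.9% and 47.2%. Such a separation was also a condition for naming a called gene, so below it is a description only. The largest rises were a sugar, a copper and an amino acid carrier, and the falls of genes detected in both groups were led by the ergothioneine carrier SLC22A4 and by SLC16A14. SLC9A9 and SLC1A4 were not detected with T104, so that their falls have only a lower bound and no place in this order. Against untreated cells, the median 95% interval of a carrier's change reached 0.40 log2 to each side, so that changes within it could not be told from 0.

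The sugar carrier SLC2A6, also called GLUT6, is a glucose transporter family member found on lysosomal membranes. It lay at 11.82 and 11.77 with T104, 10.85 and 10.96 with CD153-Fc, 11.51 and 11.45 with both, and 9.51 and 9.72 in untreated cells. The 4 groups did not overlap, with T104 on top and untreated cells lowest. With T104 it rose by 2.18 ± 0.15 log2 or 4.54-fold (adjusted p = 1e-06), the largest rise among the carriers. It was the only one of 12 sugar carriers called, in each of the comparisons with untreated cells. The fold with both agents was 3.65 and with CD153-Fc 2.44.

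SLC31A2, the low-affinity copper transporter CTR2, followed the same order of groups. Its levels were 10.71 and 10.91 with T104, 9.83 and 10.02 with CD153-Fc, 10.59 and 10.47 with both, and 8.94 and 9.07 in untreated cells. Here too no treated array overlapped with an untreated one, and the rise with T104 was 1.81 ± 0.16 log2 or 3.50-fold (adjusted p = 1.11e-05). The high-affinity copper importer SLC31A1, named here after its values were seen, was not called (-0.23 ± 0.18 log2).

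SLC11A2, the iron importer DMT1, was the other called member of the class of iron, copper, magnesium and heme carriers. Its levels were 10.17 and 9.88 with T104, 9.71 and 9.65 with CD153-Fc, 9.97 and 9.76 with both, and 9.00 and 9.25 in untreated cells. All treated arrays lay above both untreated arrays, and the T104 change was 0.90 ± 0.17 log2 (adjusted p = 0.00525). This call was lost without T104 replicate 1 (0.75 log2, adjusted p = 0.0976). Of the 6 genes of the class tested, 2 were higher and 0 lower with T104, with a class median of 0.15 log2.

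Among 17 amino acid carriers, 1 rose and 1 fell. SLC43A2, the large neutral amino acid carrier LAT4, lay at 8.49 and 8.75 with T104, 8.03 and 7.93 with CD153-Fc, 8.46 and 8.10 with both, and 6.48 and 7.43 in untreated cells, where it was detected on 1 of 2 arrays. The untreated arrays differed by 0.95 log2, more than any treated pair of this gene, and the change with T104 was 1.67 ± 0.27 log2 (adjusted p = 0.00199). It was 1.08 log2 without background correction and still called, whereas the call was lost without T104 replicate 2 (1.53 log2, adjusted p = 0.0514). SLC1A4, the neutral amino acid exchanger ASCT1 that carries serine, lay at 6.24 and 6.47 with T104, 7.40 and 7.03 with CD153-Fc, 6.77 and 6.79 with both, and 7.68 and 7.32 in untreated cells. It was not detected on either array with T104 or with both agents, and with T104 it was at least 1.21-fold lower (adjusted p = 0.0093). A bound of this kind sets the mean of the detected group against the detection limit, or the probe's own signal where that is higher, on the arrays of the other group. Here and below, the adjusted p beside a bound is that of the fitted difference and does not test the bound. The SLC1A4 call was lost without T104 replicate 1 or 2. SLC1A4 passed the filter only through the untreated and CD153-Fc arrays, where it was brighter, so its call is not taken as support. It was not tested where detection on all 8 arrays was required.

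SLC7A5, the leucine importer LAT1, was bright on all 8 arrays, at 14.40 and 14.11 with T104, 14.18 and 14.06 with CD153-Fc, 14.34 and 14.02 with both, and 13.53 and 14.19 in untreated cells. The groups overlapped through untreated replicate 2, and the change of 0.40 ± 0.19 log2 with T104 was not called (adjusted p = 0.213). The value rests on the untreated arrays, with 0.73 log2 without untreated replicate 2 and 0.07 without untreated replicate 1. Its partner chain SLC3A2 and the glutamine carrier SLC1A5, both named after their values were seen, had changes of -0.07 ± 0.14 and -0.44 ± 0.18 log2 with T104 and were not called.

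SLC9A9, an endosomal exchanger of sodium or potassium for protons, fell below the detection limit with T104. Its levels were 6.58 and 6.16 with T104, 6.90 and 6.98 with CD153-Fc, 5.91 and 5.93 with both, and 8.10 and 7.83 in untreated cells. It was detected on both untreated arrays, on 1 array with CD153-Fc and on none with T104 or both agents, and all treated arrays lay below both untreated ones. It was at least 1.67-fold lower with T104 (adjusted p = 0.00129), the only call among 11 carriers for sodium, potassium, calcium and proton exchange. SLC9A9 passed the filter only through the untreated arrays and 1 CD153-Fc array, so this call is not taken as support.

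SLC22A4, the ergothioneine transporter OCTN1, lay at 8.10 and 8.06 with T104, 8.49 and 8.29 with CD153-Fc, 7.85 and 7.89 with both, and 9.38 and 9.05 in untreated cells. All 6 treated arrays were below both untreated arrays, and the change with T104 was -1.14 ± 0.18 log2 (adjusted p = 0.00179). A second probe of the gene gave -0.91 log2 and was not called (adjusted p = 0.0807). In the same class of organic ion and peptide carriers, the carnitine transporter SLC16A9 rose by 0.60 ± 0.16 log2 with T104 (adjusted p = 0.0284), a call that was lost without any 1 of the 6 treated arrays and was 0.42 log2 under median scaling (adjusted p = 0.113).

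Of 29 mitochondrial carriers, 1 rose and 2 fell. SLC25A25, a calcium-regulated carrier of ATP-magnesium and phosphate, lay at 9.15 and 9.21 with T104, 8.81 and 8.72 with CD153-Fc, 9.18 and 8.94 with both, and 7.95 and 8.63 in untreated cells. The T104 change was 0.89 ± 0.21 log2 (adjusted p = 0.019) and 0.55 without untreated replicate 1, and the call was lost without either T104 array (0.92 and 0.85 log2). SLC25A12, the aspartate-glutamate carrier that serves the malate-aspartate shuttle, lay at 9.41 and 9.49 with T104, 9.66 and 9.76 with CD153-Fc, 9.41 and 9.60 with both, and 10.45 and 10.22 in untreated cells. Its T104 change was -0.89 ± 0.16 log2 (adjusted p = 0.00403), and the call was lost without either T104 array (-0.84 and -0.92 log2). The adenine nucleotide carrier SLC25A5 (14.92 and 14.98 with T104, 14.84 and 14.90 in untreated cells) was not called at 0.08 ± 0.11 log2. Near-identical pseudogenes of SLC25A5 make it uncertain which transcripts this probe binds.

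SLC25A51, the mitochondrial carrier of NAD, had 12.24 and 12.06 with T104, 12.38 and 12.46 with CD153-Fc, 12.62 and 12.72 with both, and 12.78 and 12.98 in untreated cells. With T104 it fell by 0.73 log2 (-0.73 ± 0.14, adjusted p = 0.00512), and the T104 arrays were below all others. A second, dim probe of the gene changed by 0.09 log2, and the call was lost with the mean over both probes (-0.32 log2) and without T104 replicate 2 (-0.64 log2). The near-identical gene SLC25A52 makes the identity of the measured transcript uncertain.

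SLC19A1, the reduced folate carrier, was the only one of 6 vitamin carriers called, with 9.34 and 9.31 with T104, 9.38 and 9.46 with CD153-Fc, 8.90 and 8.99 with both, and 10.33 and 9.81 in untreated cells. The T104 change was -0.75 ± 0.18 log2 (adjusted p = 0.0213), moved to -0.49 without untreated replicate 1 (adjusted p = 0.0529), and lost its call without either T104 array (-0.76 and -0.73 log2). Of 12 carriers of nucleotide sugars and other Golgi substrates, only SLC35B4, which carries UDP-xylose and UDP-N-acetylglucosamine, was called. It lay at 7.48 and 7.78 with T104, 7.94 and 7.94 with CD153-Fc, 7.45 and 8.03 with both, and 8.81 and 8.38 in untreated cells, a change of -0.96 ± 0.24 log2 with T104 (adjusted p = 0.0199) that was lost without either T104 array (-0.81 and -1.11 log2). Of 14 zinc carriers, SLC39A11, also called ZIP11, fell by 0.69 log2 (-0.69 ± 0.18, adjusted p = 0.026), with values between -0.54 and -0.88 over the alternatives, and lost its call without any 1 of the T104 and CD153-Fc arrays. SLC39A1, the zinc importer ZIP1, had 12.04 and 12.05 with T104 and 11.26 and 11.73 in untreated cells, a change of 0.55 ± 0.18 log2 that was not called (adjusted p = 0.0733). Its change rests on the untreated arrays, with 0.78 log2 without untreated replicate 2 and 0.32 log2 without untreated replicate 1.

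Among 22 genes with no assigned substrate, 1 was higher and 2 were lower with T104. SLC16A14, a member of the monocarboxylate transporter family, lay at 10.11 and 10.37 with T104, 10.90 and 10.89 with CD153-Fc, 9.69 and 10.22 with both, and 11.57 and 10.99 in untreated cells. Its change with T104 was -1.04 ± 0.22 log2 (adjusted p = 0.00823), and its second probe was called too at -1.45 log2 (adjusted p = 0.00374). The call of the chosen probe was lost without T104 replicate 1 or 2 (-0.91 and -1.17 log2). SLC66A2 rose by 0.57 ± 0.16 log2 (adjusted p = 0.0417), with values between 0.37 and 0.77 over the alternatives, and SLC66A3 fell by 0.61 log2 (-0.61 ± 0.17, adjusted p = 0.0366), with values between -0.43 and -0.79. Both lost their calls without any 1 of 7 arrays.

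In 4 substrate classes, no member was called with T104. The choline transporter family member SLC44A4 changed by -0.48 ± 0.16 log2 (adjusted p = 0.0737), the phosphate importer SLC20A2 by 0.56 ± 0.23, and the nucleoside carrier SLC29A2 by -0.42 ± 0.19. SLC44A4 was called under median scaling, and had -0.72 log2 without untreated replicate 1 and -0.23 without untreated replicate 2. SLC20A2 had 0.95 log2 without untreated replicate 2 and 0.18 without untreated replicate 1. The short-chain fatty acid and lactate carrier SLC5A8, not detected with T104, was at least 1.24-fold lower and missed the threshold (adjusted p = 0.0543). It passed the threshold in some alternatives, median scaling among them (adjusted p = 0.0176), and missed it in others. SLC5A8 passed the filter only through the groups in which it was brighter and was not tested under the filter of 8 detected arrays. The alternatives thus say nothing of its stability. The pyruvate carrier SLC16A7 changed by 0.22 ± 0.19 log2, the phosphate importer SLC20A1 by 0.11 ± 0.16 and the purine nucleobase carrier SLC43A3 by -0.04 ± 0.22. Bright members of other classes were likewise not called. The glucose transporter SLC2A3 had 0.24 ± 0.14, and its close relative SLC2A14 may share its probe. The Golgi and endoplasmic reticulum carrier SLC35B1 had 0.21 ± 0.14, SLC12A8 -0.23 ± 0.14, the creatine transporter SLC16A12 -0.34 ± 0.14, the riboflavin carrier SLC52A2 0.05 ± 0.15 and SLC75A1 0.34 ± 0.18. Without untreated replicate 2, SLC2A3 had 0.41 log2 and SLC75A1 0.63, whereas without untreated replicate 1 they had 0.08 and 0.04. The glucose transporter SLC2A1, named after its values were seen, had 0.31 ± 0.16. The third probe of SLC37A3, a sugar phosphate carrier family member, rose by 1.06 log2 with T104 (adjusted p = 0.0316), whereas the chosen, brighter probe changed by 0.37 and the second by -0.05.

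**Figure D1:**
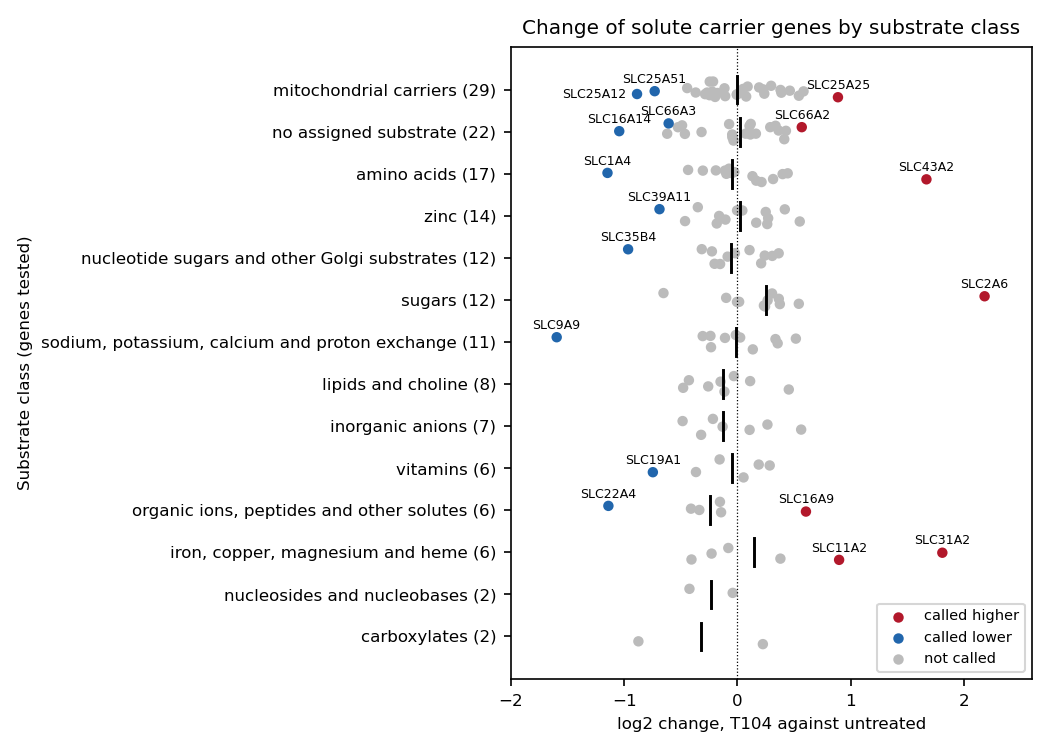
Change of each of the 154 carriers with T104 against untreated cells, as log2 change on the horizontal axis, by substrate class on the vertical axis with the number of genes tested in brackets. Red points are called higher (7), blue points called lower (10) and grey points not called (137), and the black bars are class medians. SLC9A9 and SLC1A4, not detected with T104, are drawn at fitted values with no exact size. The called genes are spread over 10 classes, and the class medians lie between -0.32 and 0.26.

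**Figure D2:**
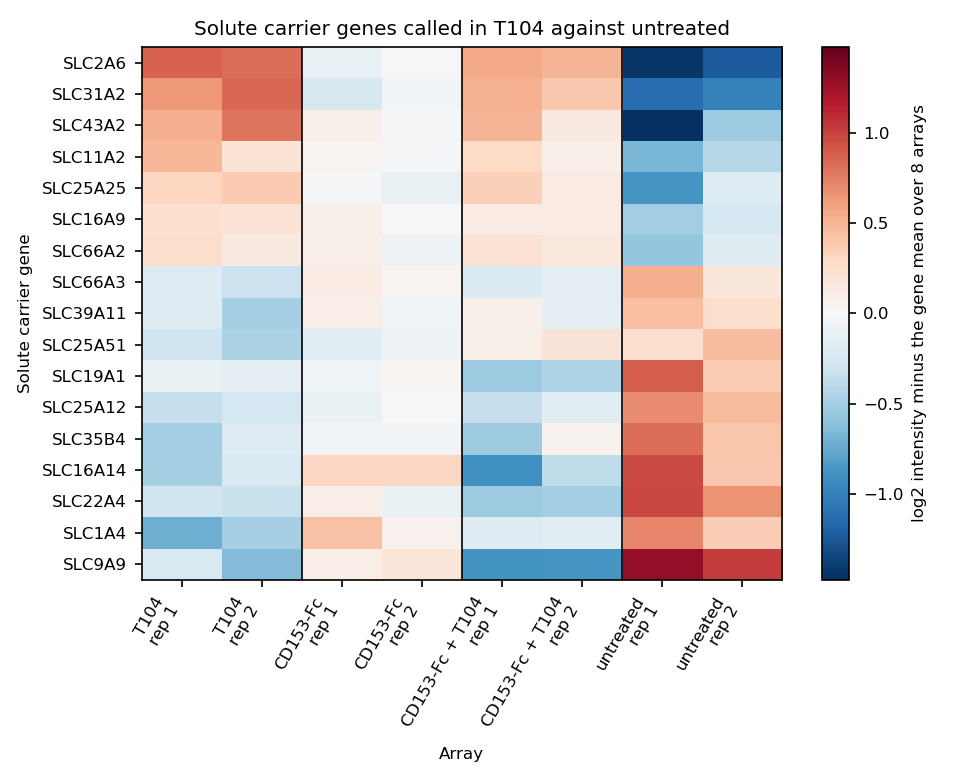
Heat map of the 17 carriers called with T104, 1 row per gene ordered by change and 1 column per array, with the groups T104, CD153-Fc, both agents and untreated cells from left to right. Colour gives log2 intensity minus the gene's mean over the 8 arrays, red above and blue below it; the untreated columns have the opposite colour to the T104 columns in each row, and untreated replicate 1 has the stronger shade of the 2 in 16 of the 17 rows, all but SLC25A51.

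Untreated replicate 1 was farther from the T104 mean than untreated replicate 2 for 16 of the 17 called carriers, SLC25A51 being the exception, and for 94 of all 154. A fit with 1 array left out has 1 array in that group, which then adds nothing to the shared spread. Without an untreated array, the wider spread of the untreated duplicates drops out. The number of carriers called moved in such fits, as did the number over all features, and no conclusion is drawn from it. The calls of SLC2A6, SLC31A2 and SLC22A4 were kept in every setting and with each array left out. For these genes, the change ranged over the alternatives from 2.02 to 2.29 log2, from 1.61 to 1.91 and from -1.37 to -0.89. The call of SLC9A9 was not lost where it was tested either, but the gene passed the filter through the untreated arrays and 1 CD153-Fc array and was not tested under the filter of 8 detected arrays, so this says nothing of its stability. The other 13 lost their call at least once. Under median scaling in place of quantiles, the median of all features shifted to -0.20 log2. The T104 comparison then called 21 carriers, 5 higher and 16 lower, and 1227 of the 10183 features. The balance between rises and falls thus depends on the scaling.

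The start regions of 4 genes, the 2 largest rises with a sequence in the table used, SLC9A9, which was below the detection limit with T104, and the largest fall detected on all 8 arrays, are shown because CD30 is known to act on genes through NF-kB and AP-1, whose motifs were searched in these stretches. The sequences are RefSeq's, build GRCh38.p14, from 250 bases before to 50 after the gene start, 5′ to 3′ on the gene's own strand. Capitals mark a match to AP-1 (TGAGTCA) or to the C/EBP-ATF response element known as CARE (TGATGNAA), bound by stress-responsive factors. The first is SLC2A6 at chr9:133479050-133479349 (minus strand), the second SLC43A2 at chr17:1604985-1605284 (minus strand), the third SLC9A9 at chr3:143848419-143848718 (minus strand) and the last SLC22A4 at chr5:132294144-132294443 (plus strand).
SLC2A6: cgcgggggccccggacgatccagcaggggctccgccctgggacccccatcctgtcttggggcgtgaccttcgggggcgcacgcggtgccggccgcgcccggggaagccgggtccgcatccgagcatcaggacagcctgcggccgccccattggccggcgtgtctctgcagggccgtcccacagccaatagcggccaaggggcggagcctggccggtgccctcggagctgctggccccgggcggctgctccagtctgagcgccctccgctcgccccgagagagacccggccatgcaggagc
SLC43A2: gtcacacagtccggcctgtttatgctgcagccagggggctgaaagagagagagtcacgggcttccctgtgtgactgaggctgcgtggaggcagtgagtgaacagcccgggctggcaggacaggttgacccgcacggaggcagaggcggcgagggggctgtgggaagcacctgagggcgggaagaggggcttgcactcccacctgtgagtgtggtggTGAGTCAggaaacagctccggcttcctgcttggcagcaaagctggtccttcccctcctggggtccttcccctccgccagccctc
SLC9A9: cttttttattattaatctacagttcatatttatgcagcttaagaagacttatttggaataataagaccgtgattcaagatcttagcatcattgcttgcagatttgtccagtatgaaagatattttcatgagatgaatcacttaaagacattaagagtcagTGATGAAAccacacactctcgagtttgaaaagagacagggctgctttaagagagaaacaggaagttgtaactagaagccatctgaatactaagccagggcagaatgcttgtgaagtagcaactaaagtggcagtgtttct
SLC22A4: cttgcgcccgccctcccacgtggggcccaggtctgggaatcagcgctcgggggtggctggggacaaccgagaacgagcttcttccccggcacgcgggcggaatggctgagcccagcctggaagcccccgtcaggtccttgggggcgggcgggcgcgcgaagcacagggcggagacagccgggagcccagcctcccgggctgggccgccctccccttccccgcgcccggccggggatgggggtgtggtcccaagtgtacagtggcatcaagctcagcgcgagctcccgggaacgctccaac

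All 154 carriers were matched to the gene table, and 135 of them had a start region in the sequence table, 15 of the 17 called with T104 included. The AP-1 letters of SLC43A2 began at -34 relative to the start and the CARE letters of SLC9A9 at -90, both on the gene's strand. Searched on both strands, AP-1 letters stood in 1 of 5 called rises, in 5 of the 135 carriers (3.70%) and in 4.92% of all 27305 promoters. CARE letters stood in 2 of 10 called falls (SLC9A9 and SLC39A11), in 7 of the 135 (5.19%) and in 3.67% of all promoters. The NF-kB consensus matched 0 of the 15 called carriers, 11 of the 135 (8.15%) and 5.72% of all promoters. These are matches of letters in a short window, and binding was not measured.

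CD153-Fc against untreated cells called 3 of the 154 carriers, 2 higher and 1 lower. That is 1.95% of the carriers, with 1.37% of all features called, 1.10% higher and 0.275% lower. The 3 were SLC2A6, SLC31A2 and SLC22A4, which were also called with T104; both comparisons share the untreated arrays. SLC2A6 rose by 1.29 ± 0.15 log2 (adjusted p = 0.000394) and SLC31A2 by 0.92 ± 0.16 log2 (adjusted p = 0.0114). SLC22A4 fell by 0.82 log2 (-0.82 ± 0.18, adjusted p = 0.047). Only the call of SLC2A6 was kept in every setting and with each array left out, with values from 1.10 to 1.39. That of SLC31A2 was lost under median scaling (0.72 log2, adjusted p = 0.0717), in the fit of the 2 groups alone and without either CD153-Fc array (1.02 and 0.83 log2). That of SLC22A4 was lost without 7 of the 8 arrays and in 6 of 11 settings, with values between -0.66 and -1.02 over the alternatives. These settings included median scaling, the replicate block, the mean over probes and the fit of the 2 groups alone. The number of carriers called with CD153-Fc moved when 1 array was left out, as did the number over all features. SLC43A2 (1.03 ± 0.27 log2, adjusted p = 0.0944) and SLC9A9 (adjusted p = 0.0647, detected on 1 of the 2 CD153-Fc arrays) missed the threshold with CD153-Fc.

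The 2 agents together against untreated cells called 11 of the 154, 4 higher and 7 lower. That is 7.14% of the carriers, with 6.67% of all features called, 3.82% higher and 2.85% lower. The rises were SLC2A6 (1.87 ± 0.15 log2, adjusted p = 5.28e-06), SLC31A2 (1.53 ± 0.16, adjusted p = 7.65e-05), SLC43A2 (1.32 ± 0.27, adjusted p = 0.012) and SLC11A2 (0.74 ± 0.17, adjusted p = 0.0237). SLC9A9, not detected with both agents, was at least 1.45-fold lower (adjusted p = 0.000242), a bound that gives it no place among the falls. Its call is not taken as support, as with T104. The falls of genes detected in both groups were led by SLC22A4 (-1.35 ± 0.18 log2, adjusted p = 0.000692), SLC16A14 (-1.33 ± 0.22, adjusted p = 0.00257) and SLC19A1 (-1.13 ± 0.18, adjusted p = 0.00257). SLC35B4 (-0.86 ± 0.24), SLC25A12 (-0.83 ± 0.16) and SLC39A10 (-0.83 ± 0.20) were called as well. SLC39A10, the zinc importer ZIP10, was not called with T104 (-0.46 ± 0.20 log2). It lay at 8.90 and 9.04 with T104, 9.11 and 9.27 with CD153-Fc, 8.50 and 8.69 with both, and 9.72 and 9.14 in untreated cells. Its call with both agents was lost without any 1 of the arrays other than untreated replicate 2, for example without untreated replicate 1 (-0.54 log2, adjusted p = 0.0652), without the filter on dim probes (adjusted p = 0.0833) and in the fit of the 2 groups alone (adjusted p = 0.164).

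SLC2A6, SLC31A2 and SLC22A4 also kept their calls with both agents in every setting and with each array left out. The second probe of SLC22A4 was not called with both agents. The call of SLC9A9 was not lost where it was tested, with the same limit as for T104, and the other 7 lost theirs at least once. SLC35B4 lost its call without any 1 of 7 arrays, with -0.57 log2 without replicate 1 of the combination. SLC43A2 changed by 0.85 log2 without untreated replicate 1 and by 0.82 without background correction, and lost its call without either array of the combination (1.15 and 1.51 log2). SLC11A2 also lost its call without either array of the combination (0.63 and 0.84 log2), and its change was 0.42 under median scaling (adjusted p = 0.104). SLC16A14, SLC19A1 and SLC25A12 lost theirs without replicate 1 of the combination (-1.06, -1.08 and -0.74 log2). The number of carriers called with both agents moved when 1 array was left out, as did the number over all features. Median scaling shifted the median of all features to -0.31 log2. It called 29 carriers, 3 higher and 26 lower, and 1638 of the 10183 features.

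**Figure D3:**
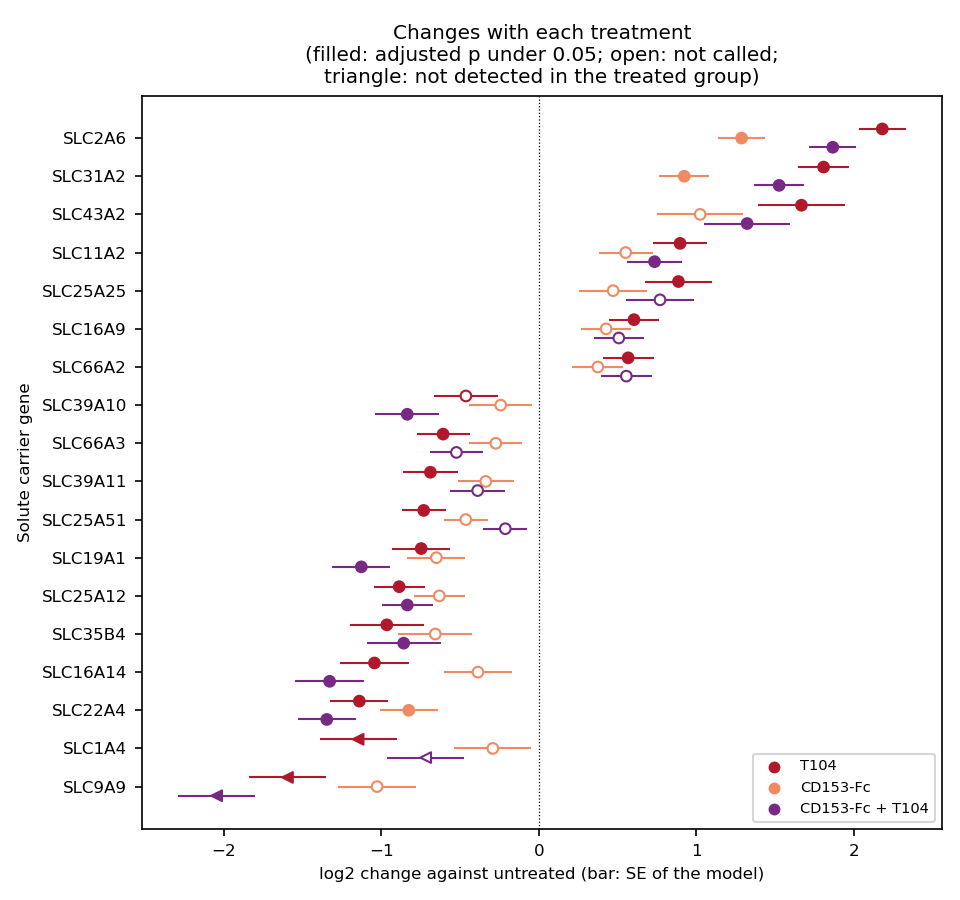
Log2 change against untreated cells of the carriers called in at least 1 comparison with untreated cells, for T104, CD153-Fc and both agents, with error bars of 1 SE of the limma model and filled points for called changes. Triangles mark treated groups in which neither array was above the detection limit (SLC9A9 and SLC1A4 with T104 and with both), where the plotted fitted value has no exact size. The 3 changes of a gene share the untreated arrays; SLC2A6 runs from 1.29 with CD153-Fc to 2.18 with T104.

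T104 against CD153-Fc does not use the untreated arrays in its difference. It called 2 of the 154 carriers, both higher with T104, with 0.609% of all features called, 0.540% higher and 0.0687% lower. They were SLC2A6, higher by 0.89 ± 0.15 log2 or 1.86-fold (adjusted p = 0.0139), and SLC31A2, higher by 0.88 ± 0.16 log2 or 1.85-fold (adjusted p = 0.0251). In both genes each T104 array lay above each CD153-Fc array, and 46.9% of all features were separated in either direction. Both calls were lost without any 1 of the 6 treated arrays, with values from 0.84 to 0.95 log2 for SLC2A6 and from 0.78 to 0.99 for SLC31A2, and that of SLC31A2 also without the filter on dim probes. The median 95% interval again reached 0.40 log2 to each side, and 12 carriers had an unadjusted p under 0.05 (limma).

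Both agents against CD153-Fc alone called 0 of the 154, with 14 at an unadjusted p under 0.05 and 0.187% of all features called (limma). The smallest p-values belonged to SLC16A14 (-0.94 ± 0.22 log2, adjusted p = 0.187), SLC9A9 (adjusted p = 0.208, detected on 1 CD153-Fc array and on none with both agents) and SLC2A6 (0.58 ± 0.15, adjusted p = 0.259). With array weights, 5 carriers and 205 of all features were called. Both numbers also moved without 1 of the untreated arrays. Both agents against T104 alone called 0, with 5 at an unadjusted p under 0.05 and 0% of all features called. There the smallest p-values belonged to SLC25A51 (0.52 ± 0.14 log2, adjusted p = 0.652), SLC44A4 (0.50 ± 0.16, adjusted p = 0.931) and SLC4A5, a bicarbonate cotransporter (0.56 ± 0.19, adjusted p = 0.999). Array weights called 2 carriers and 56 of all features, and both numbers also moved without 1 of the untreated arrays.

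The interaction asks whether the response to both agents equals the sum of the responses to each, and it called 3 of the 154, 1 higher and 2 lower, with 1.34% of all features called. The response of SLC2A6 to both agents was 1.87 log2, and the sum of its single responses was 3.47, a difference of -1.60 ± 0.21 log2 (adjusted p = 0.00179). SLC31A2 had 1.53 against a sum of 2.73, a difference of -1.21 ± 0.23 (adjusted p = 0.0215). For both genes the level with both agents lay between those with CD153-Fc and with T104. SLC25A51 had -0.21 against a sum of -1.19, a difference of 0.98 ± 0.20 (adjusted p = 0.0288), and its level with both agents lay between those of either agent and of untreated cells. The untreated arrays enter this contrast. The number of carriers called moved without 1 of them, as did the number over all features. The SLC2A6 call was kept in every setting and with each array left out, from -1.48 to -1.71 log2. Those of SLC31A2 (from -1.06 to -1.31) and SLC25A51 (from 0.46 with the mean over both probes to 1.09) were lost without any 1 of the 6 treated arrays.

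**Figure D4:**
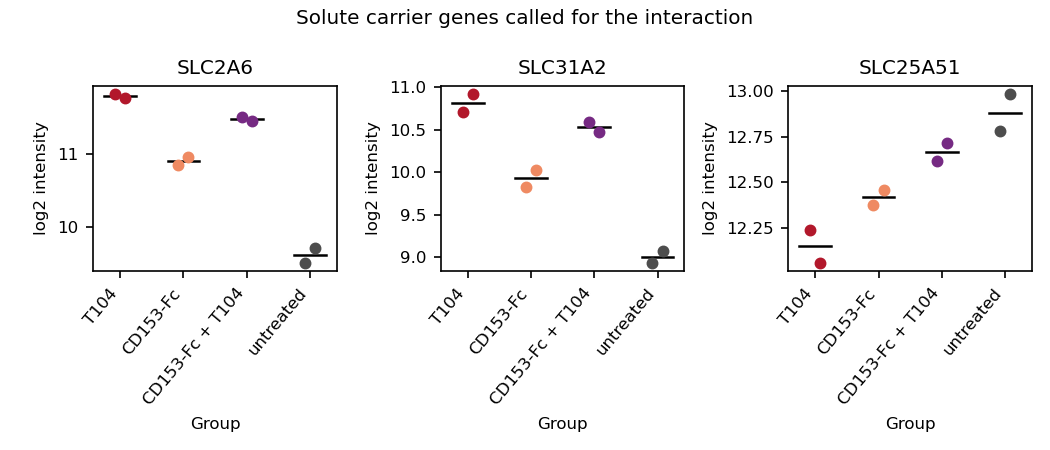
Log2 intensity of SLC2A6, SLC31A2 and SLC25A51 by group, 1 point per array and a bar at each group mean, with T104, CD153-Fc, both agents and untreated cells from left to right. For SLC2A6 and SLC31A2 the arrays with both agents lie between those with CD153-Fc and those with T104, and for SLC25A51 they lie above both and below the untreated arrays.

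Of 23 listed partners and regulators of carriers, 13 were tested. With T104, 1 rose and 1 fell, with CD153-Fc 0 were called, and with both agents 2 rose and 1 fell. Over all features 10.5%, 1.37% and 6.67% were called in these comparisons, and with 13 genes the counts are given as a description. SGK1, a kinase that raises the surface level of several ion carriers and channels, lay at 10.61 and 10.54 with T104, 9.41 and 9.23 with CD153-Fc, 9.97 and 9.81 with both, and 8.74 and 8.95 in untreated cells. All treated arrays lay above both untreated ones. It rose by 1.73 ± 0.16 log2 with T104 (adjusted p = 1.82e-05) and by 1.04 ± 0.16 with both (adjusted p = 0.00183). It was also called higher with T104 than with CD153-Fc (1.25 ± 0.16 log2, adjusted p = 0.00222) and for the interaction (-1.16 ± 0.23, adjusted p = 0.0273). NEDD4L, a ubiquitin ligase that SGK1 phosphorylates, rose by 0.87 ± 0.22 with both (adjusted p = 0.031), with 0.72 ± 0.22 and no call with T104 (adjusted p = 0.0528). STK39, the kinase SPAK that acts on cation-chloride cotransporters, fell by 0.59 log2 with T104 (adjusted p = 0.0314) and by 0.61 log2 with both (adjusted p = 0.0365). Unlike those of the carriers, the calls of these listed genes were not followed through the alternatives or with arrays left out.

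Of 44 names listed as carriers under other symbols, 5 are older names of genes counted above, and 25 were tested. With T104 and with both agents 2 rose and 0 fell, and with CD153-Fc 0 were called, beside the same shares over all features, 10.5% with T104, 6.67% with both and 1.37% with CD153-Fc. FLVCR2, a choline and heme carrier, lay at 8.80 and 8.94 with T104, 8.16 and 8.31 with CD153-Fc, 8.59 and 8.73 with both, and 7.78 and 7.62 in untreated cells. It rose by 1.17 ± 0.18 log2 with T104 (adjusted p = 0.00118) and by 0.96 ± 0.18 with both (adjusted p = 0.00608). MPDU1, needed for the use of dolichol-linked sugars in glycosylation, rose by 0.75 ± 0.21 with T104 (adjusted p = 0.0404) and by 0.90 ± 0.21 with both (adjusted p = 0.024). The lysosomal cystine exporter CTNS was not called with T104 (0.61 ± 0.20 log2, adjusted p = 0.0664). The calls of this list were not followed through the alternatives either.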

How the data were processed

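TRI reagent served for RNA extraction and an Ambion MessageAmp kit for labelling, per the labels' protocols. The authors deposited non-normalized probe intensity values on a linear scale with a detection p-value per probe and array, and processed intensity values that served as an alternative. GenomeStudio is named in the submitters' processing notes, with the version not given in the sources used here. From the deposited intensities, neqc of limma 3.58.1 in R 4.3.3 estimated background through the detection p-values, and quantile normalization and log2 followed, with an offset of 16. The filter of 2 detected arrays of 8 left 12543 probes, and 10183 features remained, the brightest probe per named gene and 1674 unnamed probes. Of all probes, 28093 had 1 symbol, 13 several and 20691 none. One limma model with a mean per group, eBayes with an intensity trend (4 residual and 8.78 prior degrees of freedom) and 7 contrasts was used. All groups share 1 spread, which is wider between the untreated duplicates. Further probes of a carrier were taken from a second fit of the same model, adjusted over all 12543 probes. The fit was tested on simulated data.

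Named genes were the 10 largest called rises and falls with T104, 5 and 5 in other contrasts (or the 3 smallest p-values), the highest and most changed member of each class, and 3 per list. In comparisons of 2 groups, called genes were ranked only where their arrays did not overlap. The members, classes and the 3 lists were chosen with earlier results of these data known. Alternatives covered normalization, background, offset, filters, the authors' values, eBayes, array weights, probe choice, the replicate block and each array left out. The calls of the genes in the 3 lists were not followed through them. Slide or scan batches are not given in the labels.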

Additional observations from a re-analysis of the deposited data

Results flagged for a closer look

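In 3 carriers the response to both agents differed from the sum of the single responses by the interaction term of the limma model. The value was -1.60 ± 0.21 log2 for SLC2A6 (adjusted p = 0.00179), -1.21 ± 0.23 for SLC31A2 (adjusted p = 0.0215) and 0.98 ± 0.20 for SLC25A51 (adjusted p = 0.0288), with n = 2 arrays per group. Without untreated replicate 1 the values were -1.51, -1.15 and 1.09, and without untreated replicate 2 they were -1.71, -1.27 and 0.89.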

How the results depend on the processing

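None of the called changes reversed in direction under any alternative. Leaving out each array in turn, the number of carriers called ranged from 5 to 48 for T104 against untreated cells, from 1 to 45 for CD153-Fc, from 4 to 52 for both agents, from 0 to 4 for T104 against CD153-Fc, from 0 to 5 for both against CD153-Fc, from 0 to 3 for both against T104 and from 1 to 32 for the interaction. The highest number for each comparison with untreated cells and for the interaction came without untreated replicate 2. Each of these fits has 1 array in a group. The number over all features moved too, and no conclusion is drawn from the ranges. Median scaling called 1 with CD153-Fc and 29 with both agents. Over all features it called 90 and 1638, against 140 and 679 in the main fit. With the 2 compared groups alone, 9 were called with T104, 1 with CD153-Fc, 5 with both, 4 for T104 against CD153-Fc and 4 for both against CD153-Fc. Over all features these fits called 399, 33, 180, 412 and 198, against 1071, 140, 679, 62 and 19 in the main fit. Without a filter on dim probes, 1 was called for T104 against CD153-Fc and 1 for the interaction, beside 51 and 83 over all features. Array weights called 6 for T104 against CD153-Fc, 5 for both against CD153-Fc and 2 for both against T104. Over all features they called 452, 205 and 56, against 62, 19 and 0 in the main fit. The duplicates of equal number did not deviate together after normalization (correlations of the duplicate differences between -0.10 and 0.01). This cannot show whether samples of equal number were handled together, which the labels do not say. The replicate block called 16 with T104, 2 with CD153-Fc, 10 with both and 2 for the interaction, against 17, 3, 11 and 3 without it. Over all features it called 890, 88, 536 and 105, against 1071, 140, 679 and 136. Why these counts move was not tested. The groups have 2 arrays each, which limits all of these values.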
